A study of Mus musculus with 14 samples.

Results

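The motile cilium genes described here are 42 mouse genes whose products build the moving cilia of the airway surface: dynein arms, their assembly factors, radial spokes, the central apparatus and the doublet microtubules. They were followed in lung RNA taken 1 month after carbon fibre was given into the trachea. The list gives genes by name, and the genes were found on the array through the RefSeq accession of each probe. The list was chosen with earlier results of these data known, and only probes well above background on at least 3 arrays were kept. In all, 40 of the 42 had a probe, and all 40 passed the background filter, out of 30579 genes or unnamed probes tested. Dnah12, an inner arm dynein heavy chain, and Ccdc40, part of the axonemal ruler, had no probe matched by accession and were not analysed here.

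A motile cilium is a whip of microtubule doublets arranged around a central pair. Outer and inner dynein arms slide the doublets past each other, and radial spokes and the nexin-dynein regulatory complex carry control signals from the central apparatus to the arms. In the lung, such cilia stand on multiciliated cells of the airway lining and move mucus, with trapped particles, toward the throat.

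The study had 14 arrays of lung from male C57BL/6N mice, each a separate biological sample. Control mice (5 arrays) received the PBS vehicle. The other mice received 200 µg of carbon fibre in 1 of 3 states, with 3 arrays each: VCF, fibre before recycling; CCF, fibre after carbonization; and RCF, fibre after firing. The age of the mice and the size and shape of the fibres are not given in the sources used here, and only 1 dose and 1 time were measured. Values are log2 signals set to 0 at each array's 75th percentile, differences are log2 differences between group means ± the standard error (SE) from limma, and a gene was said to have risen or fallen where the adjusted p was under 0.05. The p-values measure the spread between these arrays, and the number of arrays limits their precision. In lung RNA, more multiciliated cells and more RNA per cell cannot be told apart.

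The 75th percentile of the processed signal lay between 891 and 2953 on 11 arrays, and was 277 on VCF array 1, 323 on CCF array 2 and 375 on RCF array 1, which were the dim arrays. Arrays lay on 3 slides, told apart by their barcodes and numbered here in the order in which they first appear among the samples. Slide 1 held 2 control, 2 VCF and 2 CCF arrays and 1 RCF array, slide 2 held 1 control, 1 VCF and 1 CCF array, and slide 3, scanned on another day, held 2 control and 2 RCF arrays. Lung markers were present: 10 of 10 genes of the alveolar type 2 list and 9 of 10 of the type 1 list passed the filter, and Scgb1a1, the main secretory protein of airway club cells, was well above background on all 14 arrays.

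With CCF, 7 of the 40 motile cilium genes rose, where 3.78% of all genes did, and 1 fell, where 2.21% of all genes did. The 7 that rose were Rsph4a, Iqub, Spef2, Hydin, Cfap69, Cfap43 and Cfap44, which belong to the radial spokes, the central apparatus and a complex on the doublet surface, and their differences from control ran from 0.48 to 1.41. Spag17, a central apparatus scaffold, fell by 1.15. With VCF, 38 of the 40 lay above control, with a median difference of 0.28, but no single gene passed the threshold, where 0.085% of all genes did. With RCF the median was 0.06, and that of all genes was 0.06. Other probes of 4 of the 7 genes that rose with CCF, Hydin, Cfap44, Cfap69 and Spef2, did not follow the probe used, as described with each gene.

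**Figure D1:**
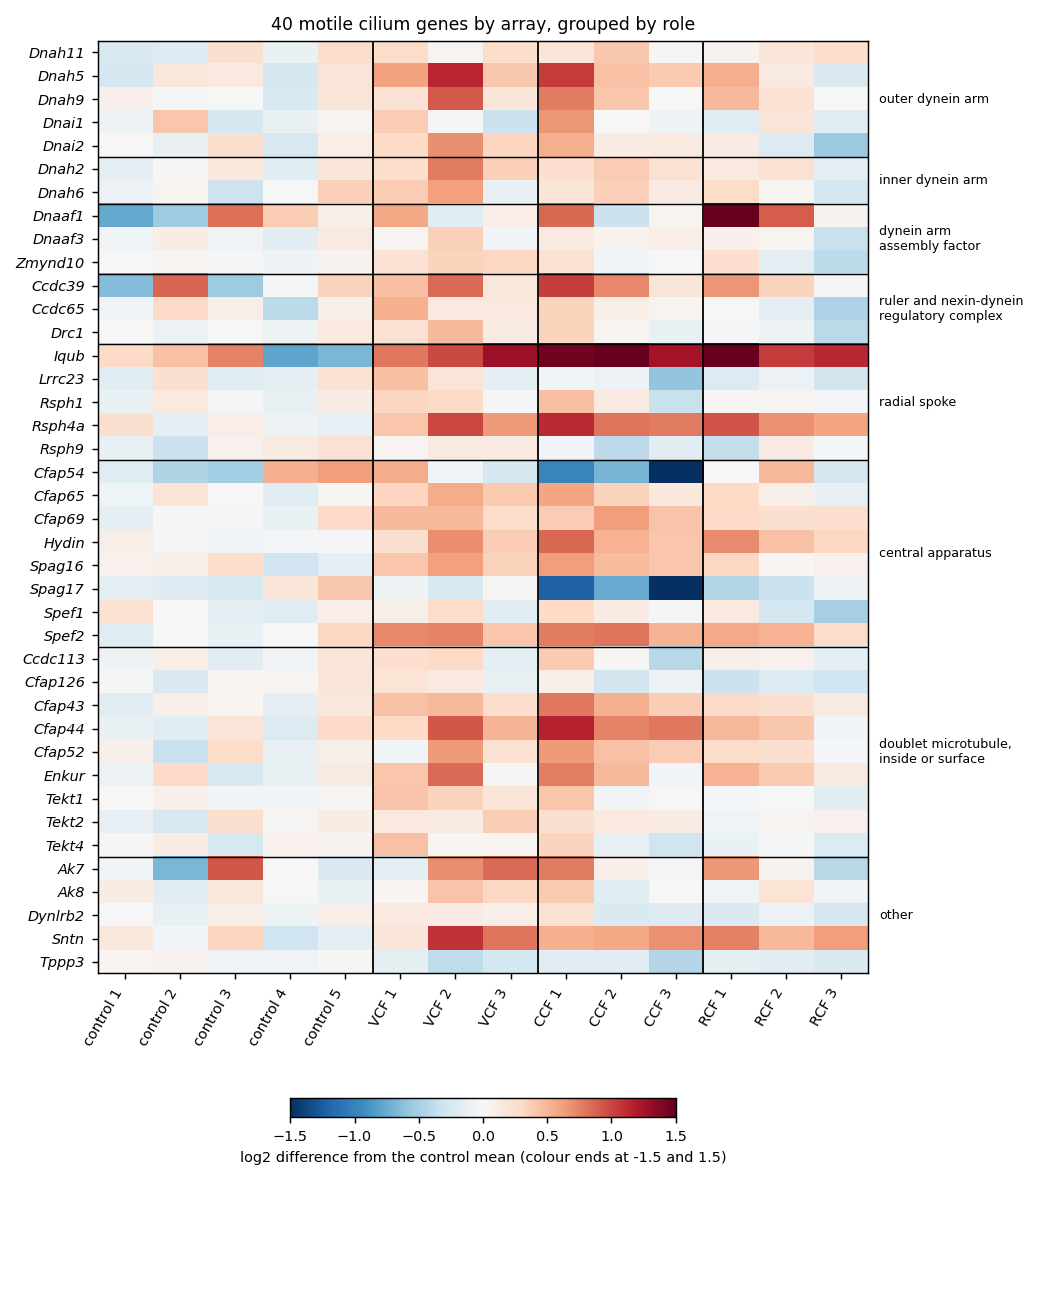
Log2 difference of each of the 40 measured genes (rows, by role) from its mean over the 5 control arrays, on each of the 14 arrays (columns, in groups of 5, 3, 3 and 3). Red is above and blue below the control mean; Iqub, Rsph4a, Hydin and Sntn are red on nearly all fibre arrays, and Spag17 and Cfap54 are deepest blue on the CCF arrays.

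Promoters are shown for the 5 genes among those that rose with CCF in which a binding motif of the ciliary transcription factors was found, and for Sntn, which held both motifs. RFX factors and the forkhead factor FOXJ1 are the known activators of motile cilium genes. The windows run from 250 bases before to 50 bases after the transcription start and come from RefSeq on GRCm38.p6, which held a window for 36 of the 42 genes. Capitals mark the RFX site GTTGCC or its reverse complement GGCAAC, and the forkhead site TGTTTAC or its reverse complement GTAAACA; both strands were searched and the motifs share no bases in these windows. Hydin lies at chr8:110266727-110267026 on the plus strand, Cfap44 at chr16:44394549-44394848 on the plus strand, and Spef2 at chr15:9748819-9749118 on the minus strand. Cfap43 lies at chr19:47837312-47837611 on the minus strand, Iqub at chr6:24515018-24515317 on the minus strand, and Sntn at chr14:13670626-13670925 on the plus strand. All are written 5′ to 3′ on the strand of the gene.
Hydin: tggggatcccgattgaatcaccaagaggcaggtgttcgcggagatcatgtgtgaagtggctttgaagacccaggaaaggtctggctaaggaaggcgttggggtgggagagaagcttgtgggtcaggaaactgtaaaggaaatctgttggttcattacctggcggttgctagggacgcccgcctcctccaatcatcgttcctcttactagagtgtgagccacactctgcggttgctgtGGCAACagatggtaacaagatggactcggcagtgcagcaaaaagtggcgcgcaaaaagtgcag
Cfap44: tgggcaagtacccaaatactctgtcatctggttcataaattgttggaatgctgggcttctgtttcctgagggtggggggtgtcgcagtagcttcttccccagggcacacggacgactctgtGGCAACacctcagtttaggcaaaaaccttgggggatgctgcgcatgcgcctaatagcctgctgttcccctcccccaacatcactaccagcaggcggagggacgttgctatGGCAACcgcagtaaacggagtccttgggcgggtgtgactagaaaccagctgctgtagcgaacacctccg
Spef2: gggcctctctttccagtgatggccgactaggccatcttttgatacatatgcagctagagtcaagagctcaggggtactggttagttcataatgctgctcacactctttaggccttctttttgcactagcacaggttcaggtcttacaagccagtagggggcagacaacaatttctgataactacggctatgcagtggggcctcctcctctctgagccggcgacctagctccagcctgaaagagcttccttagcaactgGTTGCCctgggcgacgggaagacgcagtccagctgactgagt
Cfap43: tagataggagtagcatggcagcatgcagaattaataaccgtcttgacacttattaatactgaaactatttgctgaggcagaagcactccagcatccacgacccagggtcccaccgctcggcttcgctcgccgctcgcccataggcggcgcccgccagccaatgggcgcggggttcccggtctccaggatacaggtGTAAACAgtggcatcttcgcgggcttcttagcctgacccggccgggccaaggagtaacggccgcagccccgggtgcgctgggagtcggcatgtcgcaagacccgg
Iqub: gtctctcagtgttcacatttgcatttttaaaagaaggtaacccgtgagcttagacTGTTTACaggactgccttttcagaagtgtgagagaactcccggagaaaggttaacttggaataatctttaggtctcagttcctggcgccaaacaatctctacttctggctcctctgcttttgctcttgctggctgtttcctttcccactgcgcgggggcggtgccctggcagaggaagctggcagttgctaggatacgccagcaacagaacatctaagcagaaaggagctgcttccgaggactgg
Sntn: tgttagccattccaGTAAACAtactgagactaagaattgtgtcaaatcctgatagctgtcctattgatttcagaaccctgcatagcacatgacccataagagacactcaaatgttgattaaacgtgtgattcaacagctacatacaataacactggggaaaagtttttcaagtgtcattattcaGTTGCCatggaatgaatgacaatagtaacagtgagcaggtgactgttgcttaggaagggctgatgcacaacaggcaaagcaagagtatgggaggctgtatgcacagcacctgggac

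The RFX site was found in at least 1 window of 15 of the 36 genes, or 41.7%, against 14.1% of the 27025 genes with a window. Its first base lay at position -13 from the start in Hydin, at -129 and -19 in Cfap44, at -66 in Sntn and 9 bases after the start in Spef2. The forkhead site was found in 4 of the 36, or 11.1%, against 4.05% of all genes, and lay at -55 in Cfap43, -195 in Iqub and -236 in Sntn. Of the 6 genes that rose with CCF and had a window, 3 held the RFX site and 2 the forkhead site. The members that held the RFX site also included dynein, tektin and regulatory complex genes that did not pass the threshold with any fibre, among them Dnai2, Tekt1, Tekt2, Tekt4 and Drc1. A match is a description of the letters only, and binding was not measured.

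On each array the 40 genes were summed up by their median. This median over the 40 genes, as a log2 difference from the control mean, was -0.06, -0.01, 0.00, -0.09 and 0.11 on control arrays 1 to 5. It was 0.30, 0.46 and 0.18 on the VCF arrays, 0.40, 0.13 and 0.03 on the CCF arrays, and 0.15, 0.10 and -0.09 on the RCF arrays. All 3 VCF arrays lay above every control array, whereas CCF array 3 and RCF array 2 lay within the control range and RCF array 3 just below it. The number of genes above their control mean was 36, 35 and 30 on the VCF arrays, 35, 28 and 24 on the CCF arrays, 28, 28 and 13 on the RCF arrays, and between 8 and 33 on the control arrays. The median over all 30579 genes stayed between -0.06 and 0.14 on every array.

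In VCF lung, none of the 40 motile cilium genes passed the threshold by limma, where 0.085% of all genes did, 0.0294% upward and 0.0556% downward. At an unadjusted p under 0.05, 14 of the 40 were higher, against 4.97% of all genes, and 1 was lower, against 4.99%. The difference was above 0 for 38 of 40 genes, against 49.7% of all genes, and the exceptions were Tppp3 and Spag17. Every VCF array lay above every control array for 14 genes, against 3.46% of all genes, and below for 1, Tppp3, against 3.9%. The median difference over the 40 genes was 0.28, against -0.0027 over all genes. Within slide 1 that median was 0.41, and within slide 2 it was 0.16. The 5 genes with the smallest p were Spef2 (0.63 ± 0.15, adjusted p = 0.148), Rsph4a (0.68 ± 0.16, 0.1565), Sntn (0.69 ± 0.20, 0.2388), Cfap69 (0.42 ± 0.12, 0.2501) and Spag16 (0.46 ± 0.14, 0.2847).

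With CCF, 8 of the 40 passed the threshold by limma, against 5.99% of all genes: 7 rose, against 3.78%, and 1 fell, against 2.21%. At an unadjusted p under 0.05, 12 of the 40, or 30%, were higher, against 12.9% of all genes, and 3 were lower, against 10.8%. The difference was above 0 for 31 of the 40, against 49.7% of all genes, and the median was 0.20, against -0.0031 over all genes. Every CCF array lay above every control array for 12 genes, against 9.86% of all genes, and below for 3 genes, against 6.44%. Within slide 1 the median was 0.38, and within slide 2 it was 0.03. Leaving out CCF array 1 or CCF array 2 left 1 gene past the threshold, Spag17, and leaving out control array 4 left 2, control array 1 left 3 and CCF array 3 left 4. Without the 3 dim arrays, or without the filter on dim probes, 2 genes passed, Rsph4a and Spag17. With only the CCF and control arrays in the fit, 1 passed, Rsph4a (adjusted p = 0.04926), and with the mean of each gene's probes 4 did, Iqub, Rsph4a, Spag17 and Tppp3. With replicate number as a block, over arrays numbered 1 to 3, none of the 40 passed, and few genes of the whole table did. For the other refits the share of all genes past the threshold is not given here.

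In RCF lung, none of the 40 passed by limma, where 0.154% of all genes did, 0.131% upward and 0.0229% downward. At an unadjusted p under 0.05, 5 were higher, against 8.78% of all genes, and none was lower, against 4.15%. The difference was above 0 for 24 of 40, against 57.1% of all genes, and the median of 0.06 was level with the 0.06 of all genes. Every RCF array lay above every control array for 4 genes, Rsph4a, Iqub, Hydin and Sntn, against 7.6% of all genes, and below for Tppp3, against 3.76%. The 5 smallest p were those of Rsph4a (0.74 ± 0.16, adjusted p = 0.09801), Iqub (1.33 ± 0.34, 0.1383), Hydin (0.49 ± 0.15, 0.1897), Sntn (0.62 ± 0.20, 0.2078) and Spef2 (0.45 ± 0.15, 0.2083). The median within slide 1, with 1 RCF array, was 0.23, and within slide 3, with 2, it was -0.0034. With slide as a fixed block, Rsph4a and Iqub passed with RCF.

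**Figure D2:**
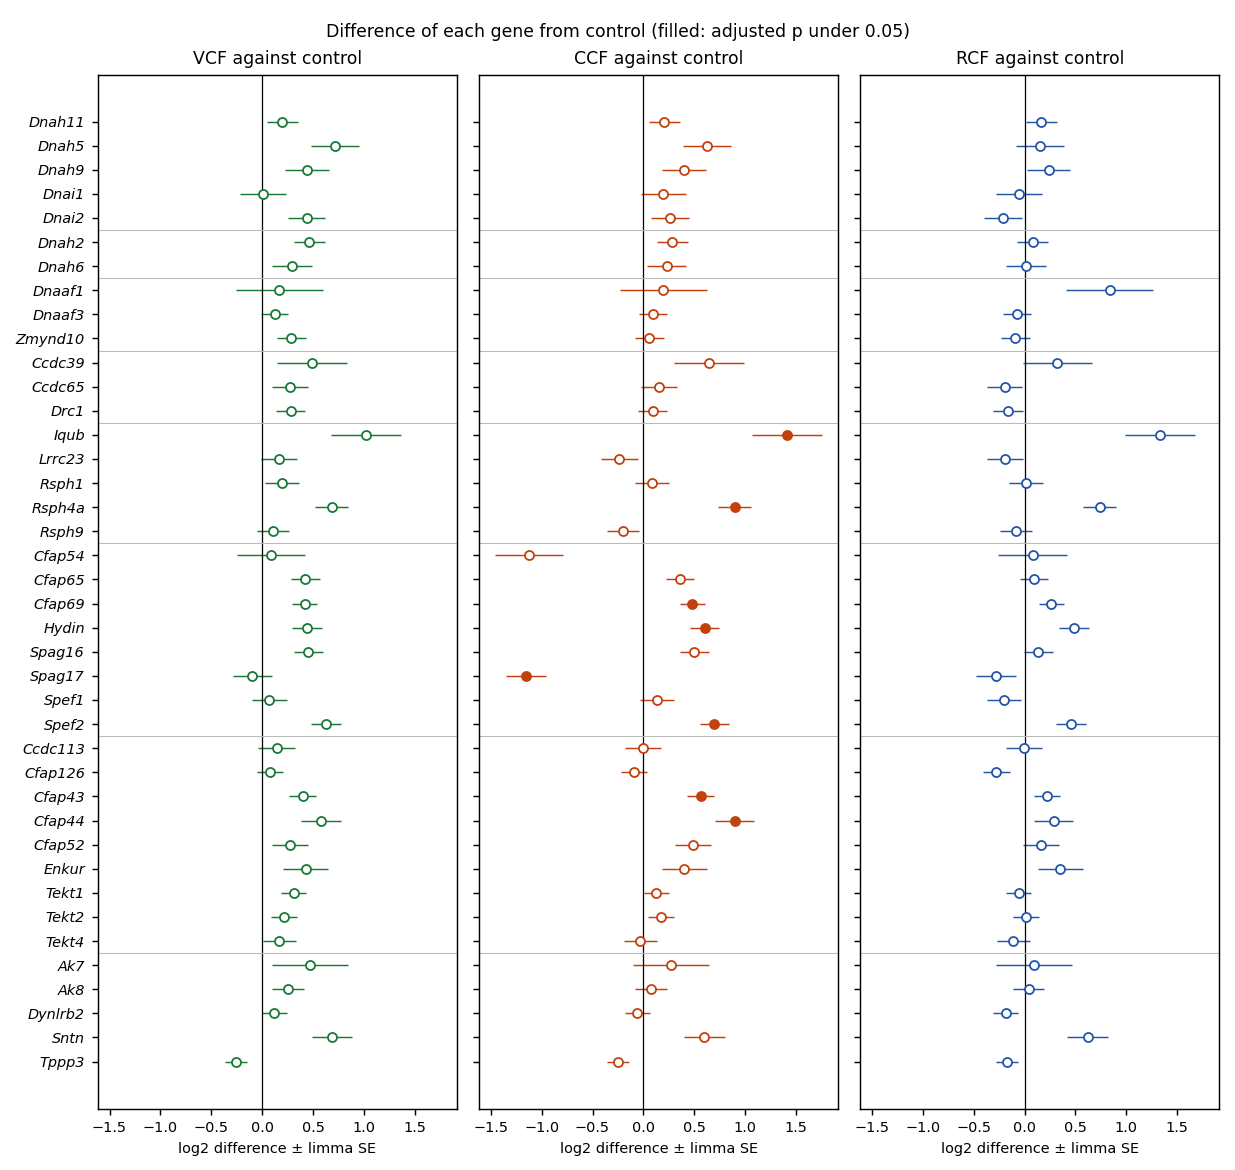
Log2 difference of each measured gene from control (points) ± limma SE (bars) for VCF, CCF and RCF, in 3 panels with genes in order of role. Filled points passed the threshold, which they did for 8 genes in the CCF panel and for none in the other panels; nearly all VCF points lie to the right of 0.

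The mean of the 3 fibres was set against control, an average that cannot show whether each fibre shifted a gene. It gave 5 genes that rose, against 2% of all genes, and none that fell, against 0.579%: Rsph4a (0.77 ± 0.12, adjusted p = 0.01583), Spef2 (0.59 ± 0.11, 0.02602), Iqub (1.26 ± 0.26, 0.03522), Hydin (0.51 ± 0.11, 0.04129) and Sntn (0.64 ± 0.15, 0.04999). At an unadjusted p under 0.05, 15 of the 40 were higher, against 11.5% of all genes, and 2 were lower, against 8.05%. Of the 40, 33 were above 0, against 51.8% of all genes, and the median was 0.17 against 0.014. All 9 fibre arrays lay above all 5 control arrays for Rsph4a, Iqub and Hydin, a pattern that 1.08% of all genes showed, and below them for Tppp3, which 0.559% of all genes showed. Without control array 4 no gene passed. Leaving out control array 1, VCF array 2, CCF array 2 or RCF array 2 left 1, leaving out control array 5, VCF array 3, CCF array 1, RCF array 1 or RCF array 3 left 2, and leaving out control array 2 or CCF array 3 left 3. Without the 3 dim arrays 1 passed, Rsph4a, and with replicate number as a block none did. The share of all genes past the threshold in these refits is not given here. Rsph4a passed in 13 of the 14 fits that each left out 1 array, Spef2 in 9, Iqub in 3, and Hydin and Sntn in 2. These comparisons share the 5 control arrays, and the mean also contains the CCF arrays. No member passed with VCF or RCF alone.

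Among the radial spoke genes, 2 of 5 rose with CCF, against 3.78% of all genes. Rsph4a encodes a protein of the spoke head, which faces the central apparatus. Rsph4a read -1.34, -1.72, -1.48, -1.65 and -1.71 on the control arrays, -1.17, -0.58 and -0.94 with VCF, -0.46, -0.78 and -0.80 with CCF and -0.64, -0.89 and -0.99 with RCF. All fibre arrays lay above all control arrays. The CCF difference was 0.90 ± 0.16, 1.86-fold, with an adjusted p of 0.01453, and it was 0.91 within slide 1 and 0.68 within slide 2. The call held in 6 of the 8 fits that each left out 1 array, and was lost without CCF array 1 or 2. With replicate number as a block it was also lost (0.83, limma adjusted p = 0.1283). Iqub, a spoke protein with an IQ motif, gave the highest difference with each fibre. Iqub read -3.90, -3.74, -3.44, -4.97 and -4.87 on the control arrays, -3.40, -3.19 and -2.90 with VCF, -2.73, -2.66 and -2.93 with CCF and -2.36, -3.13 and -3.05 with RCF. Control arrays 4 and 5, both on slide 3, were the lowest of all, and every fibre array was above every control array. VCF array 1, a dim array, was only just above control array 3, and Iqub was well above background on 2 of the 3 VCF arrays. The CCF difference was 1.41 ± 0.34, 2.66-fold, with an adjusted p of 0.03595, but within slide 1 it was 1.12 and within slide 2 it was 0.51. It passed in 2 of the 8 such fits, those without control array 2 or 3. With normexp background correction and quantile scaling the CCF difference of Iqub was 0.67 (limma adjusted p = 0.1118). Iqub and Rsph4a had 1 probe each.

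The other 3 spoke genes did not pass with any fibre. Rsph1 and Rsph9 encode further spoke head proteins, and their differences ran from -0.20 to 0.19 over the 3 fibres. Lrrc23, a protein of the third spoke, is shown on every array, as is 1 gene of each role, the one with the highest mean probe signal; signals of different probes do not rank genes. Lrrc23 read 2.74, 3.14, 2.75, 2.76 and 3.13 on the control arrays, 3.36, 3.10 and 2.76 with VCF, 2.86, 2.82 and 2.32 with CCF and 2.69, 2.82 and 2.62 with RCF. Its groups overlapped with every fibre, and the differences were 0.16, -0.24 and -0.19 with VCF, CCF and RCF.

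In the central apparatus, 3 of 8 genes rose with CCF, against 3.78% of all genes, and 1 fell, against 2.21%. Spef2, a part of the projections of the first central microtubule, was higher on all VCF and CCF arrays than on any control array. Spef2 read -0.03, 0.14, 0.05, 0.14 and 0.46 on the control arrays, 0.88, 0.90 and 0.57 with VCF, 0.93, 0.96 and 0.67 with CCF and 0.72, 0.67 and 0.42 with RCF. Control array 5 was the highest control array and lay above RCF array 3. The CCF difference was 0.70 ± 0.15, 1.62-fold, with an adjusted p of 0.02159, and it passed in 5 of the 8 fits that left out 1 array, but not without control array 4, CCF array 1 or CCF array 2. Its 2 other probes past the filter were well above background on 10 and 6 of the 14 arrays, gave -0.48 and 0.11 with CCF, and did not pass.

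Hydin, the giant protein of the second central microtubule's projection, gave opposite readings on its 2 probes. Hydin read -0.79, -0.90, -0.92, -0.90 and -0.90 on the control arrays, -0.64, -0.18 and -0.50 with VCF, -0.01, -0.36 and -0.46 with CCF and -0.17, -0.44 and -0.57 with RCF. On this probe the control arrays were nearly level, and every fibre array lay above them, with a CCF difference of 0.60 ± 0.15, 1.52-fold, and an adjusted p of 0.03614. With 1 array left out this call held only without control array 2. The other probe read -3.07, -3.85, -3.05, -3.08 and -3.00 on the control arrays, -3.18, -3.26 and -2.85 with VCF, -5.66, -4.44 and -4.91 with CCF and -3.30, -4.62 and -4.48 with RCF. It was well above background on 1 of the 3 CCF arrays, and all CCF arrays lay below all control arrays. In the fit over probes it fell by 1.79 ± 0.34 with CCF, with an adjusted p of 0.0165, whereas with VCF it gave 0.11. The direction for Hydin therefore depended on the probe with CCF and RCF, and the mean of both probes gave -0.60 with CCF.

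Cfap69, a protein of the first central microtubule, rose with CCF on the probe used. Cfap69 read 1.13, 1.24, 1.26, 1.16 and 1.55 on the control arrays, 1.76, 1.76 and 1.54 with VCF, 1.65, 1.90 and 1.70 with CCF and 1.55, 1.51 and 1.53 with RCF. Control array 5 lay apart from the other control arrays and reached the RCF level, while the CCF arrays were all above it. The CCF difference was 0.48 ± 0.12, 1.40-fold, with an adjusted p of 0.04289, and the call held in 2 of the 8 fits that left out 1 array, those without control array 2 or 5. The second probe gave -0.28 ± 0.24 with CCF and -0.69 ± 0.24 with RCF, and neither passed.

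Spag16, known from the bridge between the central microtubules, did not pass with any fibre. Spag16 read -1.28, -1.26, -1.09, -1.64 and -1.49 on the control arrays, -0.94, -0.74 and -1.01 with VCF, -0.73, -0.88 and -0.94 with CCF and -1.04, -1.32 and -1.29 with RCF. All VCF and CCF arrays were above all control arrays, and RCF arrays 2 and 3 were within the control range. Its differences were 0.46 with VCF and 0.50 with CCF (adjusted p = 0.05879), and 2 further probes gave -0.43 and 0.04 with CCF.

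Spag17 was the member that fell with CCF. Spag17 read -1.77, -1.82, -1.86, -1.44 and -1.22 on the control arrays, -1.69, -1.85 and -1.60 with VCF, -2.83, -2.38 and -3.11 with CCF and -2.07, -1.94 and -1.69 with RCF. All CCF arrays lay below all other arrays, the VCF arrays lay inside the control range, and RCF arrays 1 and 2 lay just under it. The CCF difference was -1.15 ± 0.20, 2.22-fold lower, with an adjusted p of 0.01296. It was -0.81 within slide 1 and -1.25 within slide 2, and it was the only one of the CCF calls that held in all 8 fits that left out 1 array. With replicate number as a block it did not pass (-0.96, limma adjusted p = 0.1133). A second Spag17 probe on the array did not pass the background filter.

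Cfap54, another central apparatus protein, is named because of its values. Cfap54 read -3.43, -3.71, -3.77, -2.71 and -2.63 on the control arrays, -2.69, -3.30 and -3.50 with VCF, -4.24, -3.94 and -4.92 with CCF and -3.25, -2.76 and -3.50 with RCF. All CCF arrays lay below all other arrays, but the controls were spread over more than 1 log2 unit, and the CCF difference of -1.12 ± 0.34 did not pass (adjusted p = 0.06821). Spef1, which bundles microtubules and is needed for the central pair, showed no shift past the threshold. Spef1 read 3.34, 3.12, 2.96, 2.92 and 3.21 on the control arrays, 3.20, 3.39 and 2.95 with VCF, 3.41, 3.23 and 3.09 with CCF and 3.26, 2.85 and 2.61 with RCF. Its groups overlapped, and its differences were 0.07, 0.13 and -0.20 with VCF, CCF and RCF. Cfap65 completed the role, with 0.42, 0.36 and 0.09.

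Of the 9 genes for proteins inside or on the doublet microtubules, 2 rose with CCF, against 3.78% of all genes. Both belong to the complex that tethers an inner dynein arm to the doublet. Cfap43 rose on the probe used, 1 of 2. Cfap43 read 2.10, 2.35, 2.29, 2.11 and 2.42 on the control arrays, 2.70, 2.75 and 2.52 with VCF, 3.04, 2.79 and 2.62 with CCF and 2.54, 2.49 and 2.39 with RCF. All VCF and CCF arrays lay above all control arrays, and RCF array 3 did not. The CCF difference was 0.56 ± 0.13, 1.48-fold, with an adjusted p of 0.03084, being 0.69 within slide 1 and 0.33 within slide 2. The call was lost without control array 1 or 4 or CCF array 1 or 2. Its second probe gave a like difference, 0.57.

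Cfap44, its partner in the tether, had 4 probes that disagreed. Cfap44 read -1.73, -1.81, -1.44, -1.84 and -1.35 on the control arrays, -1.33, -0.70 and -1.12 with VCF, -0.48, -0.88 and -0.84 with CCF and -1.14, -1.23 and -1.67 with RCF. On this probe all VCF and CCF arrays were above all control arrays, and the CCF difference was 0.90 ± 0.19, 1.86-fold, with an adjusted p of 0.0242. This call held only without control array 2, 3 or 5 among the fits that left out 1 array, and the difference was 1.09 within slide 1 and 0.60 within slide 2. The 3 other probes gave -0.74 ± 0.24, -0.49 ± 0.41 and -1.59 ± 0.22 with CCF. The last of them fell, with an adjusted p of 0.00642 in the fit over probes, and was well above background on 2 of the 3 CCF arrays. Thus 1 probe of Cfap44 rose and 1 fell on the same arrays, and the mean of the 4 gave -0.48.

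The other doublet genes did not pass. They were the tektins Tekt1, Tekt2 and Tekt4, which form filaments within the doublet, and Cfap52, Enkur, Cfap126 and Ccdc113. With VCF their differences ran from 0.08 to 0.43 and all were above 0. With CCF they ran from -0.09 to 0.49, and with RCF from -0.28 to 0.35. Cfap126, also called flattop, is a protein of the doublet's inside. Cfap126 read 2.95, 2.76, 3.01, 3.02 and 3.16 on the control arrays, 3.18, 3.12 and 2.87 with VCF, 3.07, 2.70 and 2.89 with CCF and 2.65, 2.77 and 2.68 with RCF. VCF arrays overlapped the controls, and RCF arrays 1 and 3 lay below all of them. Its RCF difference was -0.28 ± 0.13 and did not pass.

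**Figure D3:**
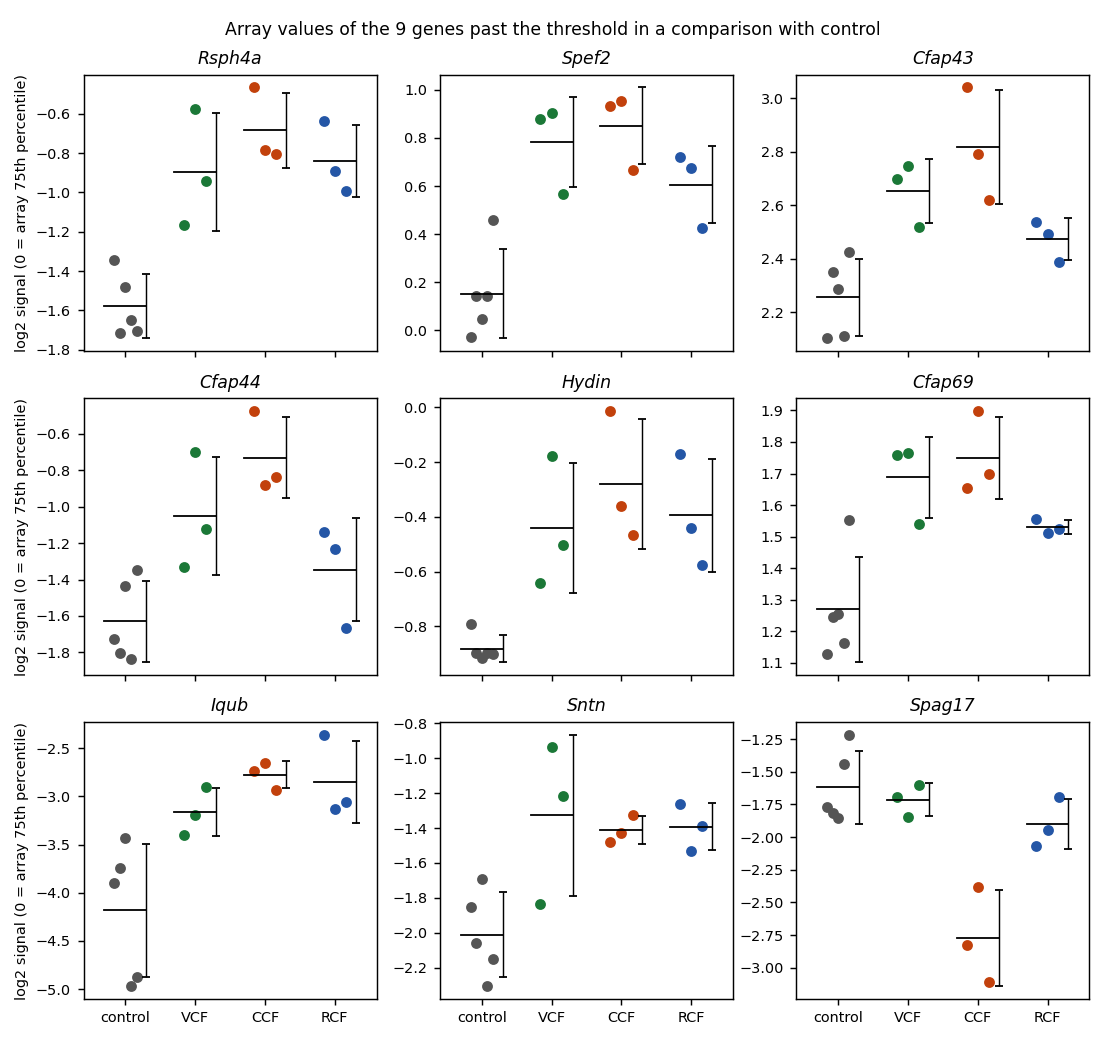
Log2 signal (0 is the array's 75th percentile) of the 9 genes that passed in a comparison with control, 1 panel each; points are arrays, lines are group means and bars are SD. All fibre arrays lie above the 5 control arrays for Rsph4a, Hydin and Iqub, and all CCF arrays lie below the other arrays for Spag17.

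None of the 13 dynein arm, assembly factor, ruler and regulatory complex genes with a probe passed the threshold with any fibre. Of all genes, 0.085% passed with VCF, 5.99% with CCF and 0.154% with RCF, so this count does not set these genes apart. The outer arm genes were all above 0 with VCF and with CCF, with medians of 0.44 and 0.26, and 3 of 5 were above 0 with RCF. Dnah5, the outer arm heavy chain often mutated in primary ciliary dyskinesia, gave 0.72 ± 0.24 with VCF and 0.63 ± 0.24 with CCF. Dnah9 is another outer arm heavy chain. Dnah9 read 0.48, 0.38, 0.38, 0.16 and 0.57 on the control arrays, 0.61, 1.32 and 0.58 with VCF, 1.17, 0.81 and 0.40 with CCF and 0.89, 0.61 and 0.40 with RCF. VCF array 2 and CCF array 1 stood highest, and CCF array 3 was inside the control range. Its differences were 0.44, 0.40 and 0.24 ± 0.21 with VCF, CCF and RCF.

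Dnah2 and Dnah6 are inner arm heavy chains. Dnah6 read 2.61, 2.74, 2.39, 2.69 and 3.06 on the control arrays, 3.08, 3.31 and 2.59 with VCF, 2.89, 3.06 and 2.82 with CCF and 2.97, 2.74 and 2.43 with RCF. The Dnah6 arrays overlapped between all groups, and the differences were 0.30, 0.23 and 0.02. Dnah2 gave 0.47 ± 0.15 with VCF, where all arrays lay above the controls, 0.28 with CCF and 0.08 with RCF. Among the assembly factors, which prepare dynein arms in the cytoplasm, Dnaaf3 is needed for several arm types. Dnaaf3 read 1.42, 1.59, 1.42, 1.32 and 1.61 on the control arrays, 1.51, 1.83 and 1.44 with VCF, 1.60, 1.52 and 1.57 with CCF and 1.54, 1.51 and 1.14 with RCF. Its groups overlapped and its differences were 0.12, 0.09 and -0.08. Zmynd10, a co-chaperone of arm assembly, gave 0.29, 0.06 and -0.09. Dnaaf1 was well above background on only 6 of the 14 arrays and on no VCF array, so its values carry no fold with VCF.

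Drc1 and Ccdc65 belong to the nexin-dynein regulatory complex, which links neighbouring doublets, and Ccdc39 is part of the ruler that sets the repeat of the axoneme. Drc1 read 2.86, 2.76, 2.86, 2.77 and 3.00 on the control arrays, 3.08, 3.34 and 2.98 with VCF, 3.19, 2.90 and 2.74 with CCF and 2.84, 2.77 and 2.45 with RCF. The VCF arrays of Drc1 lay near or above the top control array, and RCF array 3 was the lowest of all. Drc1 gave 0.28, 0.09 and -0.16 with the 3 fibres, and Ccdc65 gave 0.27, 0.15 and -0.20. Ccdc39 gave 0.49, 0.65 and 0.32, each with an SE of 0.34.

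The last 5 genes differ in role. Sntn encodes sentan, a protein of the ciliary tip. Sntn read -1.85, -2.06, -1.69, -2.31 and -2.15 on the control arrays, -1.83, -0.93 and -1.21 with VCF, -1.48, -1.43 and -1.33 with CCF and -1.26, -1.53 and -1.39 with RCF. VCF array 1 was within the control range and all other fibre arrays were above it. Sntn passed in the mean of the fibres alone, at an adjusted p close to the threshold. Tppp3, a tubulin-binding protein that is abundant in multiciliated cells, went the other way. Tppp3 read 6.38, 6.41, 6.30, 6.30 and 6.36 on the control arrays, 6.22, 5.97 and 6.08 with VCF, 6.19, 6.19 and 5.92 with CCF and 6.21, 6.18 and 6.14 with RCF. All fibre arrays lay below all control arrays, by small amounts: the differences were -0.26, -0.25 and -0.17 ± 0.11, and none passed. Its second probe fell with CCF, by 0.58 ± 0.15, with an adjusted p of 0.0398 in the fit over probes. The adenylate kinases Ak7 and Ak8 and the dynein light chain Dynlrb2 gave differences from -0.19 to 0.47 and did not pass.

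Several probes were available for 13 of the 40 genes. All probes of a gene lay on the same side of 0 for 12 of these 13 with VCF, 8 with CCF and 7 with RCF. The exception with VCF was Cfap44. With CCF they were Cfap44, Cfap69, Hydin, Spag16 and Spef2, of which 4 are genes counted above as having risen. Where in each transcript the probes lie was not analysed here, so no splice form can be named.

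**Figure D4:**
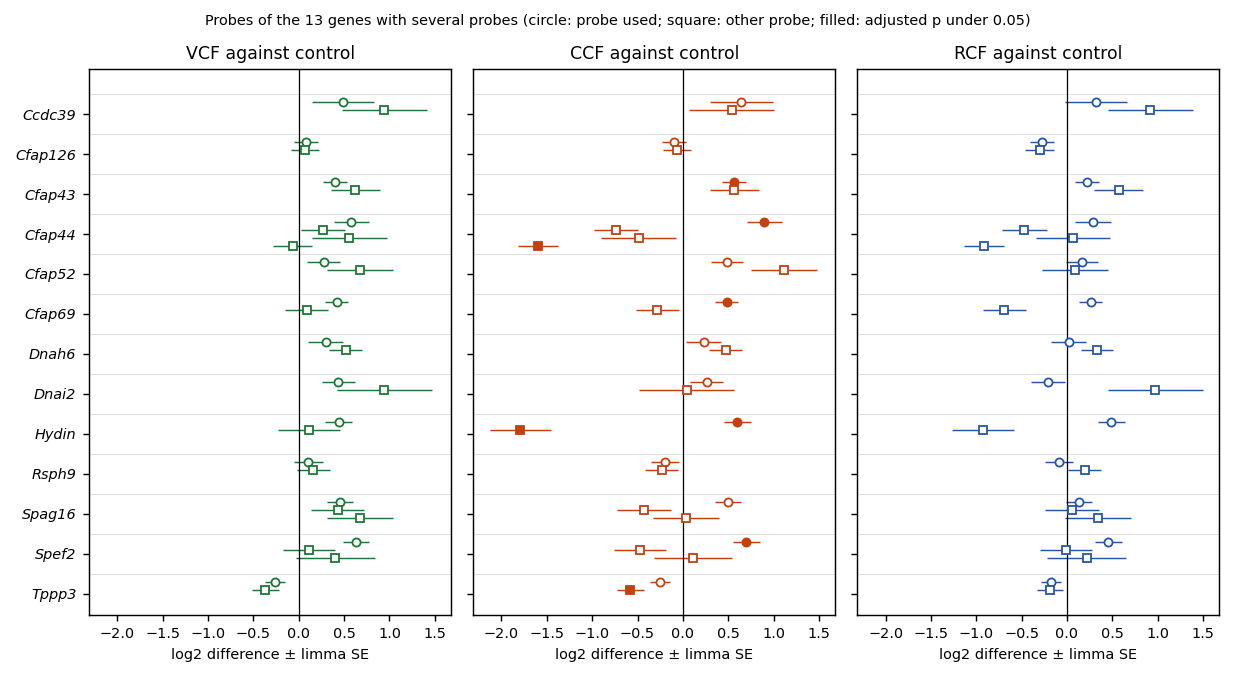
Log2 difference from control ± limma SE for every probe of the 13 genes with several probes; circles are the probes used, squares the others, and filled symbols passed in the fit over probes. In the CCF panel filled symbols lie on both sides of 0 for Cfap44 and Hydin, while in the VCF panel all but 1 Cfap44 probe of the genes other than Tppp3 lie to the right of 0.

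Between the fibres, no motile cilium gene passed the threshold by limma. For CCF against VCF, 0.222% of all genes passed, 0.0948% upward and 0.128% downward. Without adjustment, at a p under 0.05, none of the 40 was higher, against 7.56% of all genes, and 2 were lower, against 6.21%: Spag17 (-1.06 ± 0.22, adjusted p = 0.07621) and Cfap54 (-1.21 ± 0.37, 0.1867). With slide as a fixed block both passed. The difference was above 0 for 15 of the 40 genes, against 51.2% of all genes, and every CCF array lay below every VCF array for 3, against 8.32%. For RCF against VCF, where 0.00981% of all genes passed, 8 were lower at an unadjusted p under 0.05, against 2.88% of all genes, and none was higher, against 6.17%. Every RCF array lay below every VCF array for 11 genes, against 4.99% of all genes. The difference was above 0 for 5 of 40 genes, against 57.5% of all genes, and the median was -0.20, against 0.06. Dnai2, an outer arm intermediate chain, was the lowest, at -0.65 ± 0.21 (adjusted p = 0.3865). For RCF against CCF, where 0.00327% of all genes passed, 4 were lower, against 3.38% of all genes, and 2 higher, against 5.88%, at an unadjusted p under 0.05, and the 2 were Spag17 (0.87 ± 0.22) and Cfap54 (1.20 ± 0.37). A p that misses the threshold does not show that the fibres acted alike, and the median SE of these differences was 0.18. RCF arrays 2 and 3 lay on slide 3, scanned on another day, and all VCF and CCF arrays on slides 1 and 2. Only RCF array 1, a dim array, shared a slide with them. For RCF against VCF or CCF, fibre and slide therefore cannot be fully told apart.

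The wider ciliary programme was read from further lists. Of 11 regulators of multiciliated cells, 2 rose with CCF, against 3.78% of all genes, and none passed with VCF or RCF, where 0.085% and 0.154% of all genes did. Gmnc, the geminin-like protein at the head of the multiciliation programme, was well above background on 3 of the 5 control arrays, 2 of the 3 VCF arrays and all CCF and RCF arrays. Gmnc read -4.24, -4.58, -4.39, -4.26 and -4.12 on the control arrays, -4.45, -3.45 and -3.59 with VCF, -2.39, -2.16 and -2.48 with CCF and -2.89, -3.18 and -3.52 with RCF. Every CCF and every RCF array lay above every control array, and VCF array 1 did not. As measured, with the control mean partly from arrays near background, Gmnc rose by 1.98 ± 0.23 with CCF (adjusted p = 0.00451) and stood 1.49 ± 0.25 above VCF (0.0397). E2f5, a transcription factor that acts with it, rose by 1.01 ± 0.20 (0.0189). Foxj1 itself gave 0.63 ± 0.21 with VCF (adjusted p = 0.322), 0.22 with CCF and 0.06 with RCF. Foxj1 read 2.37, 2.49, 2.45, 2.40 and 2.78 on the control arrays, 3.08, 3.33 and 2.95 with VCF, 3.03, 3.03 and 2.10 with CCF and 2.74, 2.58 and 2.36 with RCF. All VCF arrays lay above all control arrays, whereas CCF array 3 was the lowest of all.

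Of 24 intraflagellar transport genes, which carry cargo along the cilium, 2 rose with CCF, against 3.78% of all genes: Ift88 by 0.67 ± 0.13 and the retrograde motor Dync2h1 by 0.56 ± 0.15. Of 34 measured further axonemal genes, 1 rose with CCF, Mns1 (0.57 ± 0.14), a share near that of all genes, and the medians were 0.28, 0.25 and 0.09 with VCF, CCF and RCF, near those of the members. None of 10 measured further assembly factors passed with any fibre, where 5.99% of all genes did with CCF. Of 11 centriole genes 1 fell with CCF, where 2.21% of all genes did: Cep164 (-1.15 ± 0.30), a protein of the appendages that dock the basal body.

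**Figure D5:**
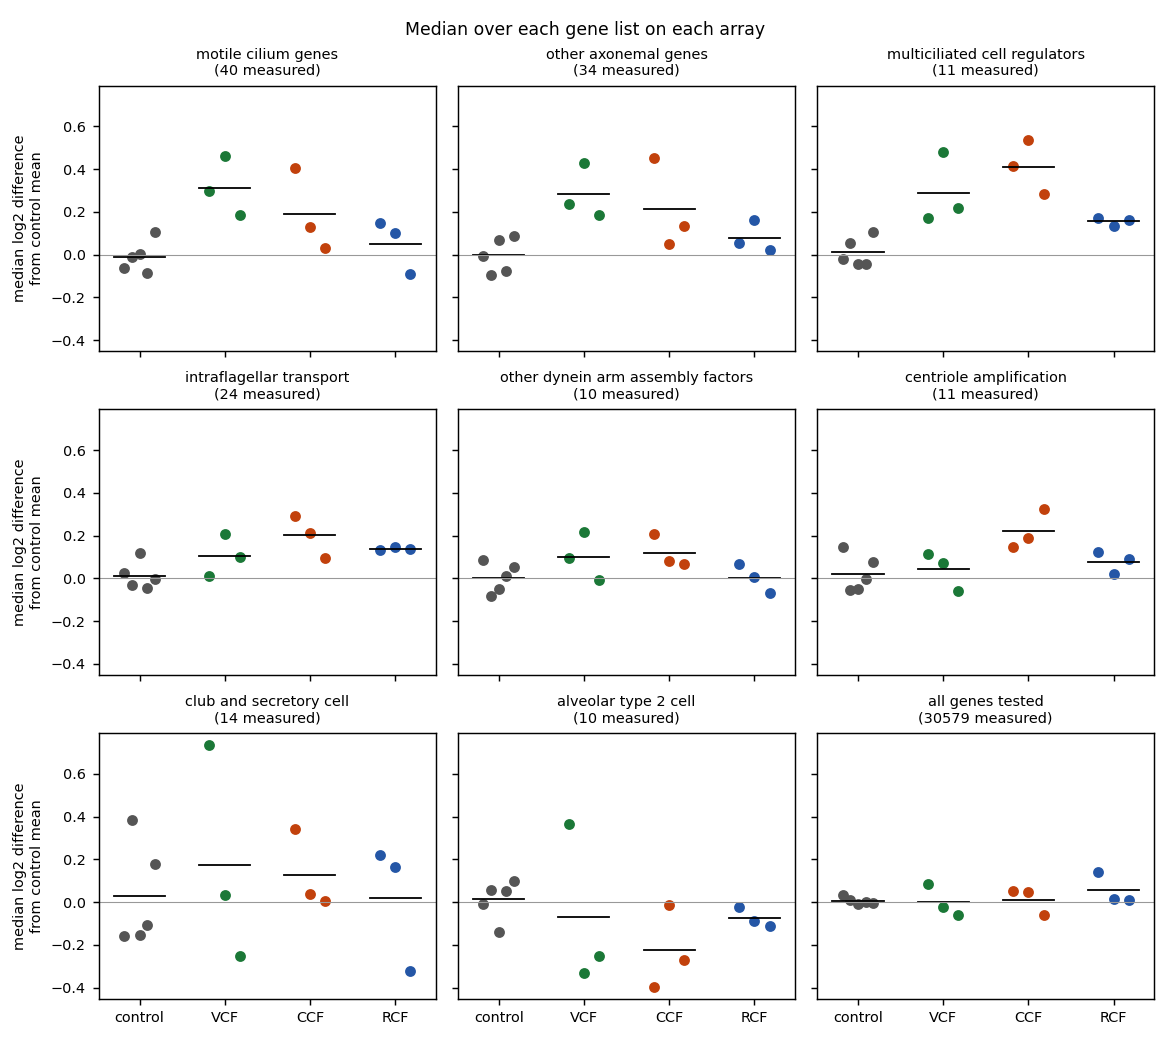
Median log2 difference from the control mean over each gene list (1 panel per list) on each array; points are arrays and lines are group means. For the motile cilium genes and the further axonemal genes the 3 VCF points lie above the 5 control points, and the club and secretory points run from -0.16 to 0.38 in controls and from -0.32 to 0.73 on the fibre arrays.

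Markers of other cells differed between the groups too. The club and secretory list, 14 of 14 measured, stood for neighbouring airway cells. Its array medians were -0.16 to 0.38 in controls, -0.25 to 0.73 with VCF, 0.01 to 0.34 with CCF and -0.32 to 0.22 with RCF. No gene of it passed with any single fibre, where 0.085%, 5.99% and 0.154% of all genes did with VCF, CCF and RCF. Of the 14, 11 lay above 0 with VCF, against 49.7% of all genes, 7 with CCF and 6 with RCF. For RCF against VCF 1 did, against 57.5% of all genes. The median difference was 0.19 with VCF and -0.30 for RCF against VCF. In the mean of the fibres 1 rose, against 2% of all genes: Chil4, a secreted chitinase-like protein (0.66 ± 0.14, adjusted p = 0.0381). Scgb1a1 gave 0.11 ± 0.44 with VCF and -0.41 ± 0.44 with CCF. Scgb1a1 read 8.12, 8.86, 7.79, 8.09 and 8.25 on the control arrays, 9.78, 7.53 and 7.69 with VCF, 7.67, 8.21 and 7.55 with CCF and 8.03, 7.55 and 7.86 with RCF. VCF array 1 was the highest and the other VCF arrays were among the lowest. The neutrophil list, 11 of 12 measured, had array medians of -0.24 to 0.18 in controls, 0.64 to 1.40 with VCF, -1.25 to -0.66 with CCF and -0.73 to 0.32 with RCF. Of its genes, 4 fell with CCF, against 2.21% of all genes: S100a9 (-1.68 ± 0.29), Retnlg (-1.69 ± 0.31), S100a8 (-1.85 ± 0.36) and Cxcr2 (-2.26 ± 0.52). Set against VCF, 5 were lower with CCF, against 0.128% of all genes. The 4 of smallest p were Retnlg (-2.87 ± 0.34), S100a9 (-2.49 ± 0.33), S100a8 (-2.86 ± 0.40) and Mmp8 (-2.43 ± 0.35). The B and plasma cell list, 8 of 8 measured, had medians of -0.35 to 0.22 in controls and -0.77 to -0.29 on the fibre arrays, and Cd79b, a chain of the B cell receptor, fell with CCF (-0.98 ± 0.19) and in the mean of the fibres (-0.88 ± 0.14). The T and NK cell list, 9 of 10 measured, had medians of -0.08 to 0.14 in controls, -0.60 to -0.43 with VCF, -0.35 to 0.07 with CCF and -0.37 to 0.18 with RCF. In it Cd8a rose with CCF (0.61 ± 0.16, adjusted p = 0.0405) and was higher with CCF than with VCF (1.07 ± 0.17, 0.0337), while Cd2 fell in the mean of the fibres (-0.41 ± 0.09, 0.0369). The erythroid list, 5 of 7 measured, had medians of -1.26 to 0.82 in controls and -2.07 to -1.03 with VCF. Its median difference from control was -1.58 with VCF, 0.57 with CCF and -0.14 with RCF. The macrophage list, 10 of 10 measured, had medians of -0.12 to 0.12 in controls, 0.15 to 0.65 with CCF and 0.30 to 0.39 with RCF. With VCF its median difference from control was 0.01. Siglecf, a lectin of alveolar macrophages, rose with CCF (0.59 ± 0.15) and in the mean of the fibres (0.48 ± 0.11). The endothelial list, 10 of 10 measured, had medians of -0.18 to 0.17 in controls and -0.21 to 0.08 on the fibre arrays. Plvap, a protein of endothelial diaphragms, fell with VCF (-1.14 ± 0.17, adjusted p = 0.0462) and was higher with CCF than with VCF (1.17 ± 0.19, 0.0337), and Tek, an angiopoietin receptor, rose with CCF (0.76 ± 0.19, 0.0413). The basal cell list, 5 of 5 measured, stood at 4.77 on control array 2, against -1.04 to 0.22 on the other control arrays. Its median difference from control, whose mean includes that array, was 0.0003 with VCF, -0.63 with CCF and -0.75 with RCF. The part of these cells in the values of the motile cilium genes was not tested.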

How the data were processed

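Lung RNA of 14 mice was labelled with Cy3, per the labels' protocols, and hybridised to 1-colour Agilent arrays of 62976 spots. The deposited files hold spot intensity values from Feature Extraction 10.7.3.1, background-subtracted and spatially detrended within each array, with probe positions on mm9, per the file headers. The deposited series values are log2 values equal to these signals less a constant per array; the origin of the constants and of their probe filter is not stated. Their medians were -0.05, -0.03, -0.29, -0.50 and -0.49 on the control arrays, 0.30, -0.30 and -0.37 with VCF, -0.36, 0.16 and -0.34 with CCF and, with RCF, -0.17, -0.52 and -0.49.

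Here, log2 of the processed signal was scaled so that the 75th percentile, taken without control spots, was 0 on every array. Outlier spots were left out, spots of a probe were averaged, and probes well above background on at least 3 arrays were kept (37983 of 56605). Genes were named by RefSeq accession (32994 of the 56605 probes had a symbol; Dnai1 and Dnai2 through the older Dnaic1 and Dnaic2), and each took its probe of highest mean, giving 30579 tested. limma 3.58.1 in R 4.3.3 (with the package data.table, version 1.17.8) was fitted on all 14 arrays in 4 groups without covariates, with 7 comparisons, moderated p-values, Benjamini-Hochberg adjustment over all tested and a threshold of 0.05. The procedure was tested on simulated data with independent noise and differences larger than those of the motile cilium genes. Slide and dim array effects were not simulated, so that test does not show how reliable the calls made here are. Fits over probes used all 37983 probes. Motif shares and array medians are descriptions.

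Values are printed on every array for members past the threshold, for the 5 members of smallest p in each comparison with control and for the highest probe of each role; other genes are named if past the threshold, at most 4 per list and comparison, and Foxj1 and Scgb1a1 always. Cfap54 was added after its values were seen. The members and lists were chosen with earlier results of these data known. Alternatives were normexp (offset 50) on the median signal, quantile scaling, the deposited table, other probe filters, the mean of a gene's probes, slide as a block, the replicate block, fewer groups or arrays, and values within slides.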

Additional observations from a re-analysis of the deposited data

Results flagged for a closer look

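In 2 of the 40 motile cilium genes, 1 control array stood apart from the other 4, and chance alone flags about 1 in 20 such groups. Hydin read -0.792 on control array 1, and the nearest other control array read -0.895. Tekt4, a tektin, read 0.901 on control array 3, and the nearest read 1.16. Both were higher or lower than their neighbours by amounts under 0.3 log2 units.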

How the results depend on the processing

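The number of genes past the threshold depended on the processing, and the medians depended on the slide and on the arrays left in. Except for the replicate block with CCF, the share of all genes past the threshold under each setting is not given here. Changes in these counts were therefore not told apart from changes over all genes. For CCF against control, 8 became 2 without a filter on dim probes, 4 with the mean of each gene's probes, 0 with the replicate block (where 2 genes of the whole table passed and 5106 had an unadjusted p under 0.05), 1 with only the 2 groups in the fit, and 2 without the 3 dim arrays; leaving out 1 array gave 1 to 8. The median lay at 0.375 within slide 1 and 0.0300 within slide 2, and at 0.0951 to 0.296 with 1 array left out. For the mean of the fibres, 5 became 3 with quantile scaling, 8 with the deposited table, 0 without the filter, 9 with probes above background on all 14 arrays, 2 with the mean of probes, 10 with slide as a random block, 0 with the replicate block and 1 without the dim arrays; leaving out 1 array gave 0 to 6. Its median, over whichever fibre arrays a slide held, was 0.370 within slide 1, with all 3 fibres, and -0.00337 within slide 3, where RCF was the only fibre, and it was 0.137 to 0.207 with 1 array left out. The replicate numbers come with no stated pairing. Deviations correlated above 0.1 in 12 of 18 same-numbered pairs (median r 0.18) and in 11 of 54 others (-0.035), and 8 of the 12 arrays numbered 1 to 3 correlated best with their own number. Some structure is thus shared by arrays of the same number, but not by every pair. Same-numbered control, VCF and CCF arrays also shared a slide, so number and slide cannot be fully told apart. The fit without the block was kept, and the calls with CCF and in the mean of the fibres depend on that choice. The block fit also left out control arrays 4 and 5, so the block and the loss of these controls were not separated. For RCF, 0 became 1 with probes on all 14 arrays and 2 with slide as a fixed or random block, and the median was 0.227 within slide 1. For CCF against VCF, 0 became 1 with probes on all 14 arrays, 2 with slide fixed and 1 with slide random. With 1 array left out, the other medians ran from 0.259 to 0.329 for VCF, 0.00263 to 0.138 for RCF, -0.190 to 0.0317 for CCF against VCF, -0.283 to -0.133 for RCF against VCF, and -0.239 to -0.0525 for RCF against CCF. The mean of each gene's probes reversed Cfap44 with CCF (-0.48) and Hydin with CCF (-0.60), RCF (-0.22) and the mean of the fibres (-0.18), since their probes disagree. Without the filter the median of all genes moved to 0.126 with CCF and 0.161 with VCF. Other causes were not tested. The 3 dim arrays limit what faint probes such as Iqub, Ak7 and Dnaaf1 can show.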
